A study of Arabidopsis thaliana with 9 samples.

Results

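Arabidopsis thaliana seedlings that had passed through 4 cold cycles were compared with seedlings that had passed through 1 cycle. The comparison used 6 of the 9 libraries of the series, 3 per group, chosen by their labels, and 17127 of the 25320 genes of the deposited table, those that reached 1 FPKM in 3 or more of the 6 libraries. FPKM counts fragments per kilobase of a gene, relative to the reads of the library. All plants carried the genotype WT, grew in soil and are labelled 2-week seedlings, and RNA came from stems and leaves. A cycle was 6 h at 4 °C followed by 18 h at room temperature. The 1-cycle group carries the time label Day 1 and the 4-cycle group Day 4, so the number of cycles and the age of the plants cannot be told apart. A step of 6 h at 0 °C is also listed for the cold plants. Whether tissue was taken before or after that step, and at which hour, is not in the labels. Control plants (Day 0, 3 libraries, labelled as at room temperature or before stress) entered only as levels set beside those of the cold groups and, in a second fit, in the estimate of the spread. Nothing in the labels tells whether replicates came from separate plantings. The p-values therefore measure only the spread between these samples, which may be technical.

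Cold acclimation in Arabidopsis runs in part through the CBF (DREB1) transcription factors, which are induced within hours of a temperature drop and bind the CRT/DRE element upstream of effector genes such as the COR, KIN and RD29 genes. Cold also changes the circadian clock, sugar and proline metabolism, flavonoid synthesis and growth. The study's title links cold memory to H3K4me3, a histone mark of active genes, and 4 cycles against 1 asks whether a repeated exposure left transcript levels different from those after a single exposure.

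Depth, as implied by the steps of the low values, was 20.18 to 20.48 M reads in the 1-cycle libraries and 17.98 to 20.78 M in the 4-cycle libraries. On the first principal component of the 6 libraries, which held 39.2% of the variance, the 1-cycle libraries lay between -31.12 and -7.80 and the 4-cycle libraries between 12.89 and 37.41. The median SD within a group, on the log2(FPKM + 1) scale, was 0.129 after 1 cycle, 0.196 after 4 and 0.14 in control. The root mean square SD was 0.282, 0.296 and 0.222 in the same order. Leaf mesophyll markers were abundant, with a summed level of 39826 to 45204 FPKM after 1 cycle and 36652 to 44382 after 4, and 5 stem xylem markers summed to 20.2 to 30.2 and 18.2 to 24.8 FPKM. Root markers summed to 45.6 to 90.2 and 31.5 to 71.1 FPKM, and shoot meristem markers to 3.94 to 8.04 and 7.92 to 15.2 FPKM. For guard cell markers the sums were 37.8 to 45.1 and 37.2 to 39.8 FPKM, for phloem 192 to 200 and 186 to 242, and for trichome 2.74 to 4.12 and 3.42 to 3.96. Of the 8 root, 4 shoot meristem and 3 trichome markers with values, 4, 2 and 1 stayed under 1 FPKM in all 9 libraries. The 14 flower and seed markers, of which 4 stayed under 1 FPKM in all 9 libraries and none was at 0 in all, summed to 1.95 to 9.28 FPKM after 1 cycle, and to 1.27, 42 and 1.78 FPKM in 4-cycle replicates 1, 2 and 3. In control replicates 1, 2 and 3 they summed to 11.5, 35.7 and 51.9 FPKM. The part in the results of the flower and seed signal of 4-cycle replicate 2, or of the control libraries, was not tested. In bulk tissue, fewer cells of a type and less RNA per cell cannot be told apart.

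After 4 cycles, transcripts of the cold effector RD29A, of the cell wall gene EXL1, of the flavonoid enzyme gene 4CL3 and of a vacuolar transporter gene were lower than after 1 cycle, and transcripts of the expansin gene EXPA8, the senescence regulator ORE1 and the clock-regulated gene CCL were higher. These 7 genes, 3 higher (0.0175%) and 4 lower (0.0234%), were the ones called among 17127 tested (0.0409%) at a Benjamini-Hochberg adjusted p under 0.05 by limma's moderated test on log2(FPKM + 1). At an unadjusted p under 0.05 were 2849 genes (16.6%), 1686 (9.84%) higher and 1163 (6.79%) lower. The 3 libraries of each group did not overlap for 4109 genes (24%), of which 2368 (13.8%) were higher and 1741 (10.2%) lower after 4 cycles. With a difference of at least 1 on the log2 scale added, 148 genes (0.864%) were higher and 89 (0.52%) lower. The median gene differed by 0.06 on the log2 scale, and by 0.01 under median-of-ratios scaling.

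The number of calls changed when a single library was left out, which also leaves fewer libraries to estimate the spread. Without 1-cycle replicate 1, 27 genes were called, without 1-cycle replicate 2 it was 1, and none was called without 1-cycle replicate 3 or without any one of the 4-cycle replicates 1, 2 and 3, where 1742, 2004, 4109 and 2708 genes had an unadjusted p under 0.05. When the 3 control libraries were added to estimate the spread, the same group means gave 244 called genes (1.42%), 139 higher (0.812%) and 105 lower (0.613%), among them all 7 above. That fit takes 1 spread for all groups, and control, which is not part of the comparison, had the lowest root mean square SD (0.222). In that fit the count fell to 20 without 1-cycle replicate 3 and to 40 without 4-cycle replicate 1. It was 103 and 101 without control replicates 1 and 3, 141 without 1-cycle replicate 2, and 142 and 118 without 4-cycle replicates 2 and 3. In all, 18 genes were called in each of the 9 fits that left out 1 library. For all 244 called genes the libraries of the groups compared did not overlap, so the separation described below for called genes is not further evidence. The split between higher and lower genes depended on scaling, with 139 higher and 105 lower as deposited, 129 and 221 after median-of-ratios scaling, and 121 and 196 after quantile normalization. Below, a gene is said to have risen or fallen when it was called with the 6 libraries or with all 9, and the fit is named.

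**Figure D1:**
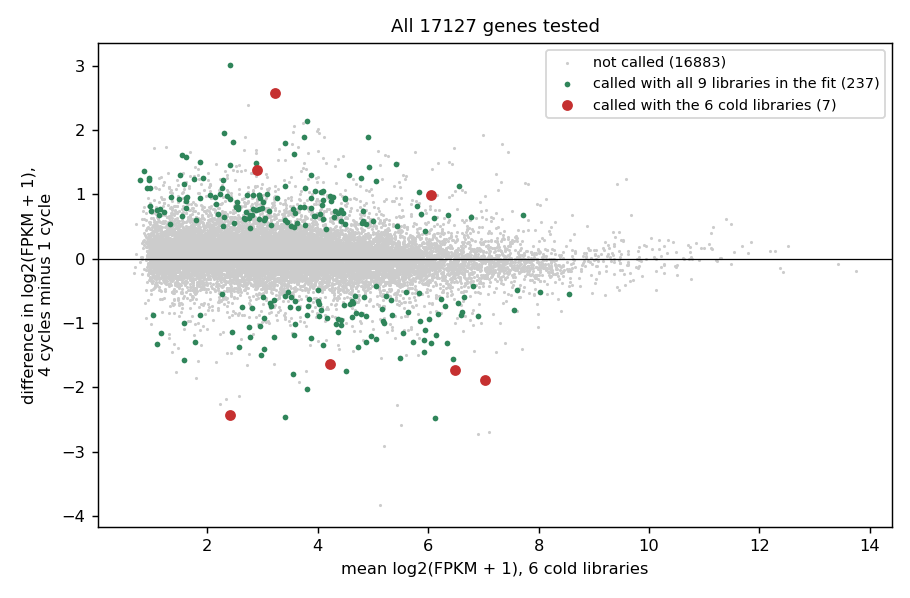
Difference in log2(FPKM + 1) between 4 cycles and 1 cycle (y axis) against the mean log2(FPKM + 1) of the 6 cold libraries (x axis) for the 17127 genes tested, 1 point per gene. The 7 genes called with the 6 libraries are red, the other genes called with all 9 libraries in the fit are green, and the rest are grey.

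RD29A, whose product accumulates under cold, drought and abscisic acid, lies on chromosome 5 from 21240717 to 21243644. It stood at 197, 135 and 161 FPKM in 1-cycle replicates 1, 2 and 3 and at 45.2, 52.2 and 47 FPKM in 4-cycle replicates 1, 2 and 3. Every 4-cycle library was below every 1-cycle library, and the control libraries, at 79.2, 33.2 and 70 FPKM, spanned the 4-cycle values. The fall was 1.73 ± 0.15 on the log2(FPKM + 1) scale (estimate ± standard error, adjusted p = 0.0352 with 6 libraries and 0.0297 with 9), or a 3.41-fold lower mean. The largest adjusted p when 1 library was left out was 0.169 with the 6 libraries.

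Because the CRT/DRE core CCGAC is the binding site of the CBF proteins, the 250 bases before the annotated start of RD29A were read from the TAIR10.1 genome (chr5:21240467-21240716, plus strand), printed 5′ to 3′ with the matches to the core in capitals.
RD29A: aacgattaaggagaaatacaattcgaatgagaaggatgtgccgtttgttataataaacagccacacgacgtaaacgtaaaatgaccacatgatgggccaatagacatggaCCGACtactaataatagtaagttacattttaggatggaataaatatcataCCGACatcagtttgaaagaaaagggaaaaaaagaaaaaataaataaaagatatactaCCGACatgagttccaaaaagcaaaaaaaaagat
The window holds 3 matches, all on the strand of the gene, whose first bases lie 140, 90 and 33 bases before the start. The core was found on either strand in the same window of 13.1% of 17031 nuclear genes tested, of 6.52% of 138 genes that rose with all 9 libraries and of 21.9% of 105 genes that fell. The abscisic acid response core ACGTG, which the G-box CACGTG contains, was present before 23.5% of all genes, 21.7% of those that rose and 26.7% of those that fell. For the G-box itself the shares were 7.55%, 4.35% and 10.5%. These matches are a description of the letters in the window.

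EXL1 (EXORDIUM LIKE 1, AT1G35140, chromosome 1, 12851983 to 12853235) encodes an extracellular protein needed for growth when carbon is short. Its level was 232, 217 and 309 FPKM in 1-cycle replicates 1, 2 and 3 and 59.1, 79.5 and 63.5 FPKM in the 4-cycle replicates. The groups were far apart, and control libraries were lower than either, at 1.55 to 6.23 FPKM. The fall was 1.89 ± 0.17 on the log2 scale (limma adjusted p = 0.0363), and without 1 library the adjusted p reached 0.169.

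4CL3 (AT1G65060, chromosome 1, 24167202 to 24171635), a 4-coumarate-CoA ligase that feeds flavonoid synthesis, stood at 27.8, 41.4 and 28.6 FPKM in the 1-cycle replicates and at 9.35, 9.27 and 10.2 FPKM in the 4-cycle replicates. The 4-cycle libraries lay close together and below all 1-cycle libraries, with control at 2.96 to 4.87 FPKM. It fell by 1.64 ± 0.16 (limma adjusted p = 0.0496 with 6 libraries, 0.0112 with 9). Its call held in all 9 fits that left out 1 library of the 9.

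AT4G36850 (chromosome 4, 17353291 to 17356037) is annotated as the probable vacuolar amino acid transporter YPQ3. Its level was low, at 9.72, 10.3 and 14.3 FPKM after 1 cycle and 1.61, 1.35 and 0.919 FPKM after 4 cycles. The 4-cycle libraries were below the 1-cycle libraries and also below the control libraries, which stood at 2.29, 12 and 6.81 FPKM. Among the 7 genes it had the smallest adjusted p beside ORE1 (0.024), with a difference of -2.43 ± 0.18.

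EXPA8 (AT2G40610, chromosome 2, 16948791 to 16950705) encodes an expansin, a protein that loosens cell walls during expansion. It stood at 2.47, 4.27 and 2.08 FPKM after 1 cycle and at 18.7, 22 and 25.4 FPKM after 4 cycles, a 7.50-fold higher mean. The 4-cycle values lay above all 1-cycle values and below the control libraries, which were at 32.2, 76.6 and 32.8 FPKM. The rise was 2.58 ± 0.22 (limma adjusted p = 0.0352).

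ORE1 (AT5G39610, chromosome 5, 15858398 to 15859911), a NAC transcription factor that promotes leaf senescence, stood at 3.59, 3.76 and 3.63 FPKM after 1 cycle and at 11.2, 10.4 and 11.7 FPKM after 4 cycles. The replicates of each group were close together and the groups did not overlap, with control at 49.4 to 62.1 FPKM. It rose by 1.37 ± 0.10 (limma adjusted p = 0.024 with 6 libraries, 0.00637 with 9).

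CCL (CCR-LIKE, AT3G26740, chromosome 3, 9827682 to 9828917), a light-regulated gene whose transcript cycles with the clock, stood at 47.1, 48.6 and 43 FPKM after 1 cycle and at 88.1, 98.4 and 93.2 FPKM after 4 cycles. The 4-cycle level was 2.02-fold the 1-cycle level, and the control level was higher than either, at 1204 to 1480 FPKM. The rise was 1.00 ± 0.10 (limma adjusted p = 0.0496). Both ORE1 and CCL were called in all 9 fits that left out 1 of the 9 libraries, whereas with the 6 libraries the adjusted p of ORE1 reached 0.164 and that of CCL 0.244.

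The window before CCL (chr3:9827432-9827681, plus strand) holds 1 evening element, AAAATATCT, a clock-related element, in capitals here with its first base 93 bases before the start.
CCL: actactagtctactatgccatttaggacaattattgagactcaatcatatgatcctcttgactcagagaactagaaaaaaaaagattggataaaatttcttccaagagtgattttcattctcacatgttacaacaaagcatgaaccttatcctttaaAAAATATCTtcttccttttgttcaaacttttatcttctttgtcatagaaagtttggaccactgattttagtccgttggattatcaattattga
This element was found before 2.61% of all genes tested, 4.35% of those that rose with all 9 libraries and 0.952% of those that fell. The windows of EXL1, 4CL3, AT4G36850, ORE1, EXPA8 and ELIP2 held none of the 4 elements.

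**Figure D2:**
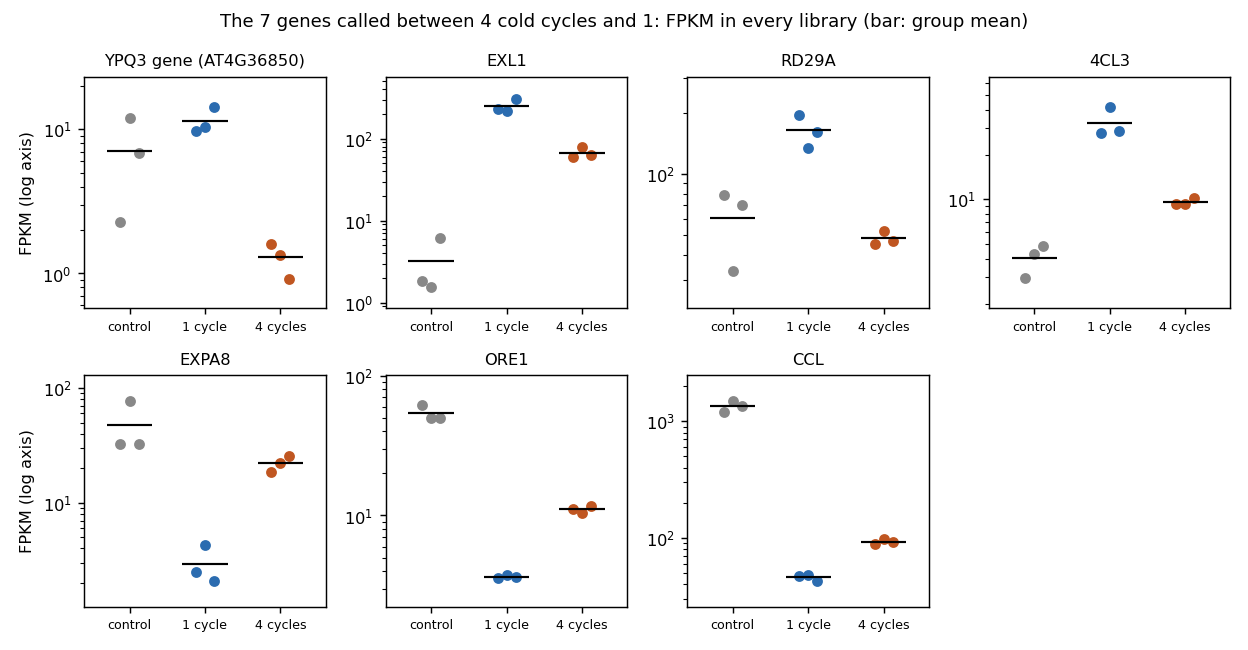
FPKM (log axis) of the 7 genes called between 4 cycles and 1 cycle in each of the 9 libraries, with control at the left of each panel and a bar at each group's mean. RD29A, EXL1, 4CL3 and the YPQ3 gene have all 4-cycle points below all 1-cycle points, and EXPA8, ORE1 and CCL have them above. The genes shown were chosen by a test on these same values, so the separation is not further evidence.

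Genes called in every leave-one-out fit of all 9 libraries were 11 that rose and 7 that fell. They are named here whatever their level, and those outside the naming rule were chosen after their values were seen. Besides ORE1 and CCL, the genes that rose included PIN7, an auxin efflux carrier, from 9.74 ± 1.36 to 21.1 ± 0.807 FPKM (mean ± SD, n = 3 per group). AT4G16190, annotated as the cysteine protease RD19C, rose from 63 ± 8.96 to 138 ± 6.66 FPKM. SERAT2;1, a serine acetyltransferase of cysteine synthesis, rose from 12.5 ± 1.6 to 25.3 ± 0.908 FPKM. BBD1, a bifunctional nuclease, rose from 39 ± 4.81 to 81.1 ± 12.1 FPKM, and AT3G05160, annotated as the sugar transporter ERD6-like 10, from 4.57 ± 0.181 to 9.76 ± 0.758 FPKM. For these 5 genes the control mean was higher than the 4-cycle mean, at 50.5, 370, 41.7, 393 and 28.1 FPKM. The remaining 4 were AT1G06645, an ACC oxidase homolog that overlaps AT1G06650, and the uncharacterized AT1G24148, AT4G23880 and AT3G14280, of which AT3G14280 overlaps AT3G14270 on the other strand.

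Among the 7 that fell, besides 4CL3, were ELIP2, an early light-induced protein of the chloroplast, from 150 ± 31.4 to 50.2 ± 7.79 FPKM, XTH18, a xyloglucan-modifying enzyme, from 46.9 ± 8.49 to 19.5 ± 1.62 FPKM, and AGP17, an arabinogalactan protein, from 69.2 ± 10.9 to 30.5 ± 4.67 FPKM. AT5G17040, annotated as the glycosyltransferase UGT78D4, fell from 4.43 ± 0.812 to 1.2 ± 0.308 FPKM, and AT4G37220, annotated as COR413-PM4, from 2.33 ± 0.197 to 0.501 ± 0.0961 FPKM. AT4G37220 lay under 1 FPKM after 4 cycles and passed the filter only through the 1-cycle libraries, where it was higher. Differences at such levels are limited by counting error. AT1G09287 overlaps AT1G71950 on the other strand in the annotation, and strandedness is not given in the sources used here. Control means of ELIP2, XTH18 and AGP17 were 0.757, 1.32 and 6.14 FPKM.

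**Figure D3:**
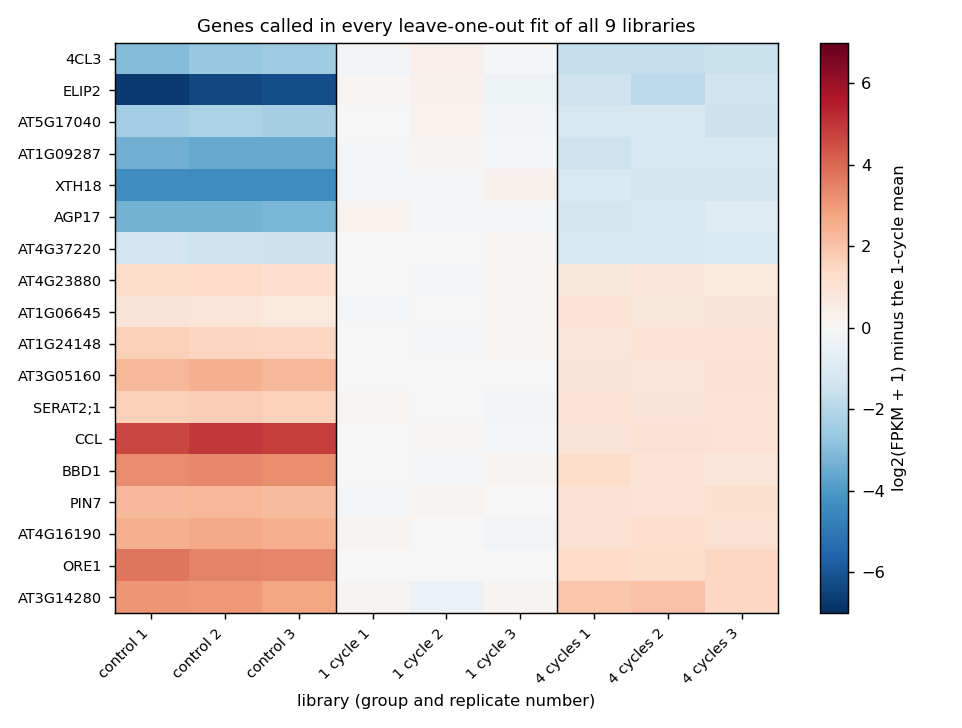
Level of the 18 genes called in every leave-one-out fit, as log2(FPKM + 1) minus the mean of the 3 1-cycle libraries (colour), by gene (rows) and library (columns). The 4-cycle columns are pale blue for the 7 genes that fell and pale red for the 11 that rose. Selection by these calls favours genes whose replicates lie close together.

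Among cold effector genes, RD29A and ELIP2 fell and the other members were not called. Of 29 tested, 2 fell and none rose with all 9 libraries (6.9% of the list beside 1.42% of all genes), 1 of them also with 6. The list's median difference was -0.23 beside 0.06 for all genes, with members from -1.73 to 1.96. At an unadjusted p under 0.05, 4 members were higher and 8 lower, beside 9.84% and 6.79% of all genes. COR15A, which protects chloroplast membranes, stood at 186, 227 and 199 FPKM after 1 cycle and 126, 232 and 173 FPKM after 4, so the groups overlapped. Its difference was -0.24, with a 95% interval from -0.75 to 0.27. The dehydrin gene COR47 had a mean of 386 ± 46.4 and 346 ± 27.4 FPKM, and ELIP1 of 179 ± 47.2 and 86.9 ± 10.5 FPKM (limma adjusted p = 0.125). KIN1 lay in the other direction, at 12.1 ± 3.4 and 21 ± 5.93 FPKM, as did EARLI1 and AZI1, lipid-transfer-like proteins of defence priming, at 8.58 ± 5.39 and 36.9 ± 27.1 FPKM and at 30.6 ± 14.5 and 72.2 ± 11 FPKM. COR15A and COR15B, and KIN1 and COR6.6, are similar tandem genes between which reads may have been split. COR6.6 had a difference of -0.48, opposite in sign to that of KIN1 (0.75), and neither was called.

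The CBF genes were high in both cold groups, and none differed by the test. None of 26 CBF pathway regulators tested was called in either fit, and 3 had an unadjusted p under 0.05, all higher after 4 cycles (9.84% of all genes were higher at that threshold). CBF2 stood at 701, 1059 and 971 FPKM after 1 cycle and 990, 1162 and 966 FPKM after 4, beside 6.23 to 9.97 FPKM in control. Its difference was 0.21, with a 95% interval from -0.21 to 0.63. CBF1 was at 288 ± 146 and 382 ± 41.2 FPKM (interval -0.40 to 1.54), and CBF3, which overlaps AT4G07385 on the other strand, at 345 ± 56.5 and 425 ± 92.7 FPKM (interval -0.16 to 0.74). CBF4 varied most, at 16.3, 156 and 110 FPKM after 1 cycle and 140, 91.2 and 80.2 FPKM after 4. In 1-cycle replicate 1, CBF1, at 123 FPKM, and CBF4 were below every other cold library, and without that library the difference of CBF4 turned from 0.60 to -0.38. CBF1, CBF2 and CBF3 are similar tandem genes, so their levels share the same doubt. Among regulators with an unadjusted p under 0.05, RAV2, a repressor of growth and flowering, was at 27 ± 6.45 and 51.8 ± 9.92 FPKM (limma adjusted p = 0.0635 with all 9 libraries), without a call.

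Of 32 clock genes tested, CCL rose and no other gene was called (3.12% beside 1.42% with all 9 libraries), and the list's median was -0.05. CCA1, a morning-phased MYB factor of the core clock, stood at 234, 233 and 233 FPKM after 1 cycle and 173, 148 and 191 FPKM after 4. LHY, its close relative, stood at 173, 188 and 186 FPKM and at 161, 114 and 148 FPKM. For either gene the 4-cycle libraries were below all 1-cycle libraries, as for 10.2% of all genes tested, and neither passed the test (limma adjusted p = 0.162 and 0.258). TOC1, an evening-phased repressor, overlapped, at 15.8 ± 4.54 and 13.9 ± 4.46 FPKM. The hour of sampling, on which these genes depend, is not given in the labels.

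**Figure D4:**
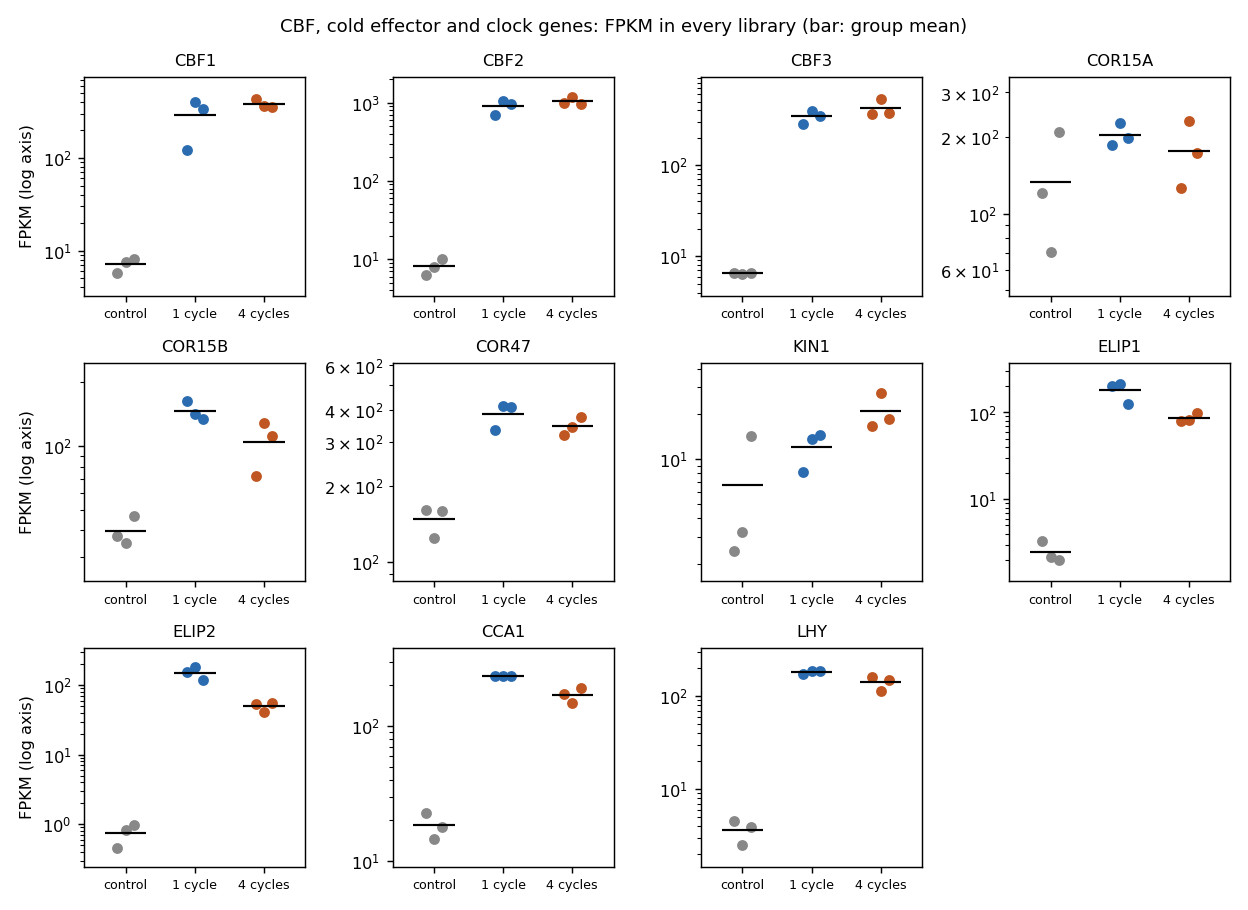
FPKM (log axis) of 3 CBF genes, 6 cold effector genes and 2 clock genes in each of the 9 libraries, with a bar at each group's mean. For CBF1, CBF2, CBF3, COR15A and COR47 the 4-cycle points overlap the 1-cycle points, and for ELIP1, ELIP2, COR15B, CCA1 and LHY all lie below. Among all genes tested, 10.2% had every 4-cycle library below every 1-cycle library.

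Among flavonoid genes, PAL1, 4CL3, TT5 and TT19 fell and KFB01 rose. Of 24 tested, 4 fell and 1 rose with all 9 libraries (20.8% of the list beside 1.42%), and 1 fell with 6. The median was -0.52, and 15 members were lower and 3 higher at an unadjusted p under 0.05, beside 6.79% and 9.84% of all genes. PAL1, phenylalanine ammonia-lyase at the entry of the pathway, fell from 129 ± 10.4 to 73.4 ± 17.2 FPKM. TT5, chalcone isomerase, fell from 51.7 ± 12.5 to 24.9 ± 2.5 FPKM, and TT19, a glutathione transferase for anthocyanin transport that overlaps AT5G17230 on the other strand, from 29.9 ± 3.94 to 13.1 ± 2.56 FPKM. KFB01, a Kelch F-box protein that targets PAL for degradation, rose from 2.9 ± 0.737 to 6.38 ± 1.09 FPKM. These 4 calls held in 1, 2, 5 and 3 of the 9 fits that left out a library, and the adjusted p reached 0.15, 0.128, 0.112 and 0.116. Chalcone synthase (TT4) had 370 ± 46.7 and 177 ± 32.7 FPKM without a call (limma adjusted p = 0.0636 with all 9 libraries), as had the late enzymes DFR, at 38.4 ± 12.7 and 18.6 ± 3.22 FPKM, and LDOX, at 49.8 ± 20.2 and 24.4 ± 3.63 FPKM. The regulator PAP1, which activates the late genes, was at 7.22 ± 1.13 and 6.93 ± 1.45 FPKM. Control levels were 23.7 FPKM for PAL1, 13 FPKM for TT5 and 45.4 FPKM for TT4.

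Called cell wall genes went in both directions. Of 19 growth and cell wall genes tested, EXPA8 rose and EXL1 fell in either fit (10.5% of the list beside 1.42% of all genes with all 9 libraries), with a list median of 0.35. EXPA1 was at 49.7 ± 11.7 and 142 ± 30.3 FPKM and EXO, the founding member of the EXORDIUM family, at 95.2 ± 21.7 and 33.1 ± 6.88 FPKM, without calls (limma adjusted p = 0.0585 and 0.0506 with all 9 libraries). Of 18 expansins tested, EXPA8 rose and the expansin-like gene EXLA1 fell with all 9 libraries (11.1% beside 1.42%). EXLA1 stood at 219, 130 and 155 FPKM after 1 cycle and at 17.7, 32.8 and 39.7 FPKM after 4, so that all 4-cycle libraries were far below. It overlaps AT3G45980 on the other strand. Its difference of -2.48 ± 0.31 had the largest size among the falls, and its call was lost without 1-cycle replicate 3 (adjusted p = 0.0587), as was that of EXPA8 at the same adjusted p. Of 18 XTH genes tested, XTH18 alone was called, 5.56% of the list beside 1.42% of all genes, and 8 were lower and 1 higher at an unadjusted p under 0.05, beside 6.79% and 9.84% of all genes. The leucine-rich extensin LRX3, outside the naming rule, fell from 102 ± 27.4 to 36.7 ± 9.9 FPKM with all 9 libraries (limma adjusted p = 0.0401), a call that held in 2 of the 9 leave-outs.

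The proline genes ERD5 and P5CS2, the sugar genes DIN10 and SIP2 and the abscisic acid gene CYP707A1 fell. Of 6 proline genes tested, 2 fell with all 9 libraries (33.3%), as did 1 of 24 sugar and starch genes (4.17%) and 1 of 20 abscisic acid genes (5%), beside 0.613% of all genes that fell and 1.42% called in either direction. The sugar and abscisic acid lists did not fall as a whole. At an unadjusted p under 0.05, 4 sugar and starch genes were higher and 4 lower, with a list median of -0.05. For abscisic acid 3 were higher and 2 lower, 14 had a positive difference, and the median was 0.10. Of all genes, 9.84% were higher and 6.79% lower at that threshold. ERD5, proline dehydrogenase, which breaks proline down, stood at 37.5, 30 and 59.2 FPKM after 1 cycle and 10.6, 12.7 and 11.1 FPKM after 4, near its control range of 4.73 to 8.76 FPKM. P5CS2, an enzyme of proline synthesis that overlaps AT3G55605 on the other strand, fell from 92.3 ± 5.8 to 59.9 ± 7.62 FPKM, a call lost in every leave-out (adjusted p up to 0.119). The ERD5 call held in 6 of 9 leave-outs, with an adjusted p up to 0.0751 in the others. In the sugar and starch list, DIN10, a dark-inducible raffinose synthase-like gene overlapping AT5G20260 on the other strand, fell from 21.4 ± 7.07 to 5.55 ± 2.15 FPKM (held in 1 of 9 leave-outs, adjusted p up to 0.145). SIP2, of the same protein family and outside the naming rule, fell from 107 ± 33.6 to 41.1 ± 3.48 FPKM (held in 3 of 9). In the abscisic acid list, CYP707A1, a hydroxylase that inactivates the hormone, fell from 17.1 ± 1.79 to 7 ± 1.52 FPKM (held in 4 of 9, adjusted p up to 0.128). The control mean of CYP707A1 was 1.7 FPKM.

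The next 3 genes, all encoding proteases, were chosen after their values were seen, belong to no gene list and say nothing of proteases as a group. With all 9 libraries, the cathepsin B gene AT4G01610 rose from 21.1 ± 3.09 to 50.5 ± 9.22 FPKM and the aleurain gene ALP from 166 ± 5.75 to 266 ± 39.7 FPKM. GAMMA-VPE, a vacuolar processing enzyme that overlaps AT4G32930 on the other strand, rose from 41.4 ± 7.95 to 73.1 ± 1.88 FPKM. Their control means were 123, 480 and 338 FPKM, above the 4-cycle means. The call of AT4G01610 held in 8 of 9 leave-outs, that of ALP in 2 and that of GAMMA-VPE in 3. The senescence regulator ORE1 was the called member of the 8 dark and starvation genes tested (12.5% beside 1.42% with all 9 libraries).

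Neither immune genes of the salicylic acid branch nor jasmonate outputs had a called member, and their medians lay on opposite sides of that of all genes. Of 28 salicylic acid and immunity genes tested, 23 had a positive difference and 9 had an unadjusted p under 0.05, all higher, beside 9.84% of all genes that were higher and 6.79% lower at that threshold. The list's median was 0.68 beside 0.06. PR1, a pathogenesis-related marker, stood at 266, 18.5 and 51.7 FPKM after 1 cycle and at 405, 326 and 113 FPKM after 4, so the groups overlapped. WRKY53, a regulator of senescence and defence, was at 11.7 ± 4.56 and 34.8 ± 18.9 FPKM and NIMIN1, which binds the receptor NPR1, at 9.49 ± 9.09 and 32.8 ± 15.9 FPKM. Of 44 WRKY genes tested, WRKY60 (2.27% of the family beside 1.42% of all genes) rose with all 9 libraries, from 5.15 ± 3.19 to 19.2 ± 5.83 FPKM (limma adjusted p = 0.0394), and the call held in 1 of 9 leave-outs. None of 84 TIR or NBS disease resistance genes tested was called, 75 had a positive difference, with a median of 0.36, and 26 were higher and 1 lower at an unadjusted p under 0.05, beside the same 9.84% and 6.79% of all genes.

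The 12 jasmonate and ethylene outputs had a median of -1.30, with 11 negative. At an unadjusted p under 0.05 none was higher and 1 was lower, beside 9.84% and 6.79% of all genes. PDF1.2B, a plant defensin, stood at 190, 17.6 and 652 FPKM after 1 cycle and at 12.8, 8.04 and 5.53 FPKM after 4, while control libraries ranged from 111 to 819 FPKM. The 1-cycle libraries differed by more than the gap between 1-cycle replicate 2 and the 4-cycle libraries, and the difference of -3.83 ± 1.15 was not called (limma adjusted p = 0.19). PDF1.2 genes are near-identical copies. Of 24 genes of jasmonate synthesis and signalling, none was called, and 6 were lower and 1 higher at an unadjusted p under 0.05 (6.79% and 9.84% of all genes).

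Genes of the H3K4 methyltransferase and demethylase lists, which are not limited to the trimethyl mark H3K4me3, and genes of flowering showed no call. None of 13 H3K4 methyltransferase and COMPASS genes (differences from -0.25 to 0.33, median 0.06) and none of 9 H3K4 demethylase genes (0.07 to 0.30, median 0.16) was called in either fit or had an unadjusted p under 0.05. Among 11 Polycomb and vernalization genes and 18 flowering genes, none was called in either fit and 1 in each list had an unadjusted p under 0.05 (16.6% of all genes). For the flowering list this was FT, the mobile flowering signal, at 3.25, 2.9 and 2.12 FPKM after 1 cycle and 0.112, 0.628 and 1.48 FPKM after 4. All 4-cycle libraries were below the 1-cycle libraries, as for 10.2% of all genes tested. The difference of -1.18 ± 0.29 was not called (limma adjusted p = 0.158 with 6 libraries, 0.0619 with 9). FLC, the repressor of flowering, was at 0.0971 ± 0.0234 and 0.109 ± 0.0966 FPKM, and VIN3, which is induced by long cold, reached 0.0218 FPKM in 1-cycle replicate 1 and was listed at 0 in the other cold libraries. Neither passed the filter. HIS1-3, a stress-inducible linker histone, rose from 1.05 ± 0.575 to 3.5 ± 0.756 FPKM with all 9 libraries (limma adjusted p = 0.0496), a call lost in every leave-out, beside 34.9 FPKM in control.

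None of 30 nuclear photosynthesis genes (median -0.01), 15 redox genes, 14 heat shock genes, 11 touch-responsive genes or 11 reference genes (median 0.04) was called in either fit, and 1, 0, 1, 2 and 0 of them were higher and 1, 5, 1, 1 and 1 lower at an unadjusted p under 0.05, beside 9.84% and 6.79% of all genes. All 9 ribosome biogenesis genes tested had a negative difference, from -0.74 to -0.15, and none was called. Of these, 8 had an unadjusted p under 0.05, beside 6.79% of all genes that were lower at that threshold. The largest was FIB2, a fibrillarin gene of rRNA processing, at 40.6 ± 1.6 and 24 ± 2.9 FPKM. Of 203 cytosolic ribosomal protein genes 167 had a negative difference, with a median of -0.12, and 1 fell with all 9 libraries (0.493% beside 0.613% of all genes). Of 16 B-box light factors BBX15 and BBX32 rose with all 9 libraries (12.5% beside 0.812% of all genes that rose), from 64.1 ± 5.15 to 103 ± 14.5 and from 11.5 ± 0.709 to 23 ± 5.35 FPKM, and the calls held in 1 and 2 of 9 leave-outs. BBX32 overlaps AT3G21140. Of 101 P450 genes tested, 6 rose and 1 fell with all 9 libraries (6.93% beside 1.42% of all genes).

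**Figure D5:**
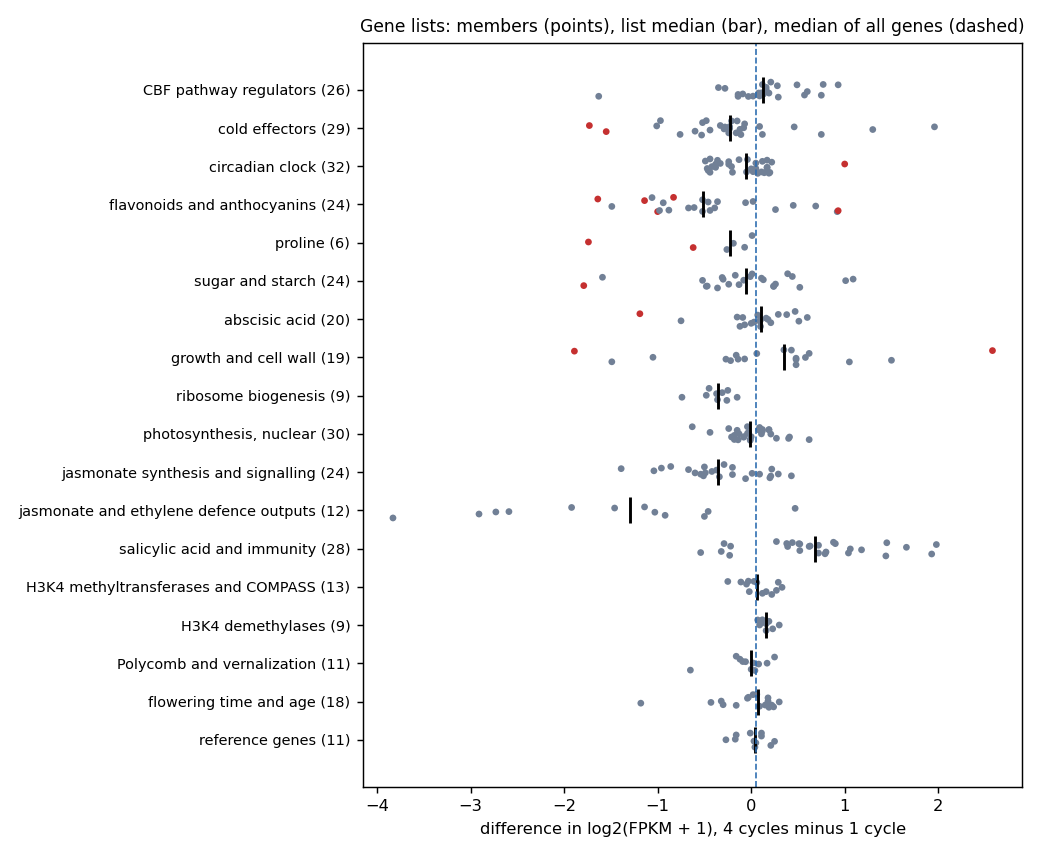
Difference in log2(FPKM + 1) between 4 cycles and 1 cycle (x axis) for the members of 18 gene lists (rows, number tested in brackets), with list medians as bars and the median of all genes, 0.06, as a dashed line. Members called with all 9 libraries are red, flavonoid and jasmonate output medians lie to the left of the dashed line at -0.52 and -1.30, and the salicylic acid median lies to the right at 0.68.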

How the data were processed

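RNA from stems and leaves was sequenced in 9 libraries, from 0.5 µg of total RNA with a SMARTER mRNA-Seq kit per the labels' protocols. The authors deposited 1 table of FPKM values per gene and library, not log-transformed. The submitters' processing notes list TopHat, Cufflinks and Cuffdiff, with no version. The genome build, annotation, strandedness and role of each tool are not given in the sources used here. The table's gene coordinates match TAIR10.1 at both ends for 99.98% of 25099 loci, so positions and upstream sequence are given on that build, from RefSeq's genome.

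Low FPKM values lie on steps of whole reads, which gave the depth of each library and whole reads for 24959 genes (98.6%, tolerance 0.01 read). Values near 1 FPKM rested on a median of 32 reads (counting error 17.7%), and a 0 leaves room for 3 reads. These limits cover counting error only.

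Groups were taken from the sample labels. FPKM values were used unscaled as log2(FPKM + 1), pseudocount 1. Genes that reached 1 FPKM in 3 or more of the 6 cold libraries were tested with limma 3.58.1 in R 4.3.3 (lmFit, then eBayes using a mean trend, 3.15 prior degrees of freedom), with Benjamini-Hochberg adjustment over all 17127 genes and a threshold of 0.05. Standard errors and 95% intervals come from that fit, and a fold is the ratio of the group means in FPKM. The fit of all 9 libraries kept the same genes and added the control group to the estimate of the spread. Figures and tables used Python 3.11.15, pandas 2.3.3 and matplotlib 3.10.9.

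The comparison, the 33 gene lists, the gene families (26 with a tested gene) and the tests were chosen with earlier results of these data known. Named were the 12 largest rises and 12 largest falls among called nuclear genes whose higher group averaged 5 FPKM or more and whose groups did not overlap, up to 4 called members of each list, the 6 called genes with the highest mean, and CBF1 to CBF4, COR15A, RD29A, VIN3, FLC, FT, LHY, CCA1 and TOC1. Applying this rule to the fit of all 9 libraries was added after the data were seen. List members without a call, named for their role, were also chosen after their values were seen. Families were matched by symbol or description. Alternatives were other pseudocounts, filters, scalings, a replicate block, no mean trend, limma-voom on the recovered reads and leaving out each library. No batch is given in the labels.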

Additional observations from a re-analysis of the deposited data

How the results depend on the processing

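The 7 calls with the 6 libraries (3 higher, 4 lower) became 244 (139 and 105) when all 9 libraries entered the fit. They became 57 (26 and 31) with a minimum FPKM of 5, which left 12036 genes tested, and 0 without a filter on low values. Voom on the recovered reads gave 18 (6 and 12), quantile normalization 10 (3 and 7), and median-of-ratios scaling 3 (2 and 1). Pseudocounts of 0.1 and of 5 gave 5 calls each (2 and 3), and dropping the mean trend 6 (2 and 4). Leaving out 1 library gave from 0 to 27 calls, 0 to 17 higher and 0 to 10 lower. With the replicate block no gene was called (0 higher, 0 lower, smallest adjusted p 0.0564), with 2927 genes at an unadjusted p under 0.05. Deviations of same-numbered libraries correlated at 0.214, 0.106 and -0.112 for replicates 1, 2 and 3, and not every library correlated best with its own number. Whether the numbers pair the libraries cannot be told from these values or from the labels.

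The settings of the fit of all 9 libraries other than that fit itself were chosen after seeing the data. Its 244 calls became 771 (506 and 265) with the block, 350 after median-of-ratios scaling, 317 after quantile normalization, 326 (108 and 218) with voom, 233 with a minimum FPKM of 5, and 223 and 204 with pseudocounts of 0.1 and 5. Leaving out control replicates 1, 2 and 3 gave 103, 211 and 101 calls, 1-cycle replicates 226, 141 and 20, and 4-cycle replicates 40, 142 and 118. Of 2040 pairs of a named gene and a setting, 1428 kept the call status of the 6-library fit, 80 lost a call, 526 gained a call and 6 changed sign. Many pairs could not change sign, since fits of all 9 libraries as deposited share their cold group means with those of the 6. The sign changed for CBF4 without 1-cycle replicate 1 (-0.38 in either fit, range over leave-outs -0.38 to 1.22). It also changed for TOC1 without that library (0.01) or without 4-cycle replicate 2 (0.08, range -0.37 to 0.08). Neither gene was called in any of them. Beyond smaller numbers of genes or libraries, the cause of these changes was not tested. Differences of genes near FPKM 1 are limited by counting error.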

Other observations

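Among the largest differences called with all 9 libraries, SLAH3, an anion channel of guard cells and other tissues, fell from 47, 19.2 and 22.4 FPKM in 1-cycle replicates 1, 2 and 3 to 5.3, 6.47 and 6.18 FPKM in the 4-cycle replicates (limma adjusted p = 0.0174, held in 7 of 9 leave-outs). AT1G68600, annotated as the malate transporter ALMT5, rose from 6.03 ± 0.234 to 25.7 ± 7.65 FPKM, beside 72.2 FPKM in control (adjusted p = 0.0112, held in 8 of 9). DUR3, a urea transporter, rose from 6.12 ± 3.04 to 20.1 ± 3.86 FPKM (adjusted p = 0.0401, held in 2 of 9). The uncharacterized gene AT2G44240 had the largest rise, 3.02 ± 0.63 on the log2 scale, but its 1-cycle libraries stood at 4.37, 0.0964 and 0.0971 FPKM and the call held in 1 of 9. AT2G44380, annotated as a nucleoredoxin, rose from 1.61 ± 0.799 to 8.9 ± 2.24 FPKM (held in 7 of 9), and AT4G16563, annotated as an aspartyl protease, fell from 27.6 ± 18.7 to 3.57 ± 0.568 FPKM (held in 6 of 9).

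The 6 called genes with the highest mean FPKM, with all 9 libraries, were AGP15, LOS2, ALP, LTPG1, cICDH and EXL1, of which ALP and EXL1 are described above. LOS2, which encodes the glycolytic enzyme enolase, fell from 313 ± 10.6 to 218 ± 13.4 FPKM. The cytosolic isocitrate dehydrogenase gene cICDH fell from 246 ± 10.1 to 142 ± 9.1 FPKM, beside 157 FPKM in control. AGP15, an arabinogalactan peptide, fell from 456 ± 46 to 310 ± 17.9 FPKM, and LTPG1, a lipid-transfer protein of cuticular wax export that overlaps AT1G27960 on the other strand, from 231 ± 8.52 to 163 ± 6.91 FPKM. The calls of LOS2, cICDH, AGP15 and LTPG1 held in 1, 1, 0 and 2 of the 9 leave-outs.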
